A study of Mus musculus with 2 samples.

Results

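The genes described here make phosphatidylcholine (PC), the main membrane phospholipid of muscle, from choline, or serve the ethanolamine branch beside it. They are the choline transporters *Slc44a1* and *Slc44a2*, the kinases *Chka*, *Chkb* and *Etnk1*, the cytidylyl transferases *Pcyt1a* and *Pcyt2*, the phosphotransferases *Chpt1* and *Cept1*, and the methyltransferase *Pemt*. The rule went by name and used no measured value, although the genes were picked with earlier results of these data known: every non-control probe that the array lists under one of these 10 gene names, or under an older or current alias, was taken. That gave 23 probes of 41112 on the array, and 10 of 27570 gene names. Each of the 23 is listed under the current symbol.

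In the CDP-choline (Kennedy) pathway, choline enters the cell through a transporter, a kinase phosphorylates it, a cytidylyl transferase activates phosphocholine to CDP-choline, and a phosphotransferase joins this to diacylglycerol (DAG). The cytidylyl transferase step is usually the slow one. A parallel branch makes phosphatidylethanolamine (PE) from ethanolamine, and PEMT methylates PE to PC, mostly in liver. Muscle depends on this pathway: mice that lose *Chkb* develop a muscular dystrophy. GDE5 (*Gpcpd1*) works at the other end, where it splits glycerophosphocholine, a breakdown product of PC, into choline and glycerol 3-phosphate. The question here is how the transcripts of the synthesis enzymes stood in muscle whose fibres lack it.

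The samples were gastrocnemius (GAS) muscle of male C57BL/6 mice, 15 weeks old and on normal diet. The *Gde5* skKO mice carry HSA-Cre, which is driven by a skeletal actin promoter and so acts in muscle fibres, together with *Gde5* flox/flox alleles, and the other cells of the muscle keep *Gde5*. The labels call the controls wild-type (WT), and the study's methods name *Gde5* flox/flox littermates without Cre as controls of its muscle tests. Such littermates were also used in its glucose tolerance test and fasting challenge. If those were the controls here, the loss of *Gde5* and the presence of Cre cannot be told apart. The paper reports no effect of Cre alone on contraction, choline metabolites or PC levels. An effect of Cre on the transcripts was not tested here. The series names 5 mice per genotype and does not say whether their RNA was pooled, whether both arrays held the same RNA, or whether the mice were fasted or had received glucose. The study describes array comparisons both after a glucose injection and after fasting, and which of them these arrays hold was not settled from the labels. WT and *Gde5* skKO RNA were hybridized together on 2 Agilent arrays with the dyes swapped, so that WT carried Cy3 on array 1 and Cy5 on array 2. Both arrays came from 1 slide and 1 scan.

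All ratios below are log2 of *Gde5* skKO over WT, positive where the knockout was higher. The signals are processed intensities in arbitrary units. Transcript levels are not compared between probes, because probes differ in brightness for reasons other than transcript level. Sums over marker lists are set between genotypes within an array and follow their brightest probes most. A probe was tested if, on each array, Feature Extraction marked either channel as well above background, and called if the p-value of the Feature Extraction error model was under 0.05 on both arrays with the same direction. That p-value weighs a spot's error within a hybridization and says nothing of the spread between mice. The other tests given below, limma's moderated test and the methods' t-test, use the spread between the 2 arrays. Whether that includes any spread between mice is not known, since both arrays may have held the same RNA. With 2 arrays, precision is limited: the median error of a member probe's ratio was 0.21 on array 1 and 0.21 on array 2.

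*Gde5* itself is listed as *Prei4* and has 4 probes on the minus strand of chromosome 2 (mm8). At chr2:132221088-132221147 the WT signal was 13392 and the knockout signal 2229 on array 1, against 17840 and 1850 on array 2. This probe was called lower, as were 2 others, and their mean ratios lay between -3.18 and -2.93. The first of these shares 38 bases with another of the 3, and the probe at -3.18 had a mean of -1.45 with normexp and loess. The fourth, at chr2:132256048-132256107, had ratios of -0.05 and -0.47 and was not called. Where these probes lie relative to the deleted exon was not assigned here. Muscle markers bore out the labelled tissue: all 8 genes were above background, none of their 11 tested probes was called, and their median ratio was -0.02 (0.02 with normexp and loess). Their summed signal was 633511 in WT and 625047 in the knockout on array 1, and 614571 and 591894 on array 2, with *Actn3* as the brightest probe.

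Of the 23 member probes, 18 were tested, and each of the 10 genes kept at least 1 tested probe. A single probe, of *Chpt1*, was called higher, and none was called lower. In all, 284 of 19103 tested probes (1.49%) were called higher and 302 (1.58%) lower. A further 321 (1.68%) passed on both arrays in the direction of the dye and not of the genotype, and no member was among these 321. In the direction of the genotype 586 (3.07%) passed, higher and lower together. The 1 call in 18 (5.56%) is thus a single probe beside a background of 1.49%, and the genes carry no further call. On each array alone, 1 of 18 member probes (5.56%) had a p under 0.05 on array 1 and 2 of 18 (11.1%) on array 2, against 13.1% and 14.0% of all tested probes.

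**Figure D1:**
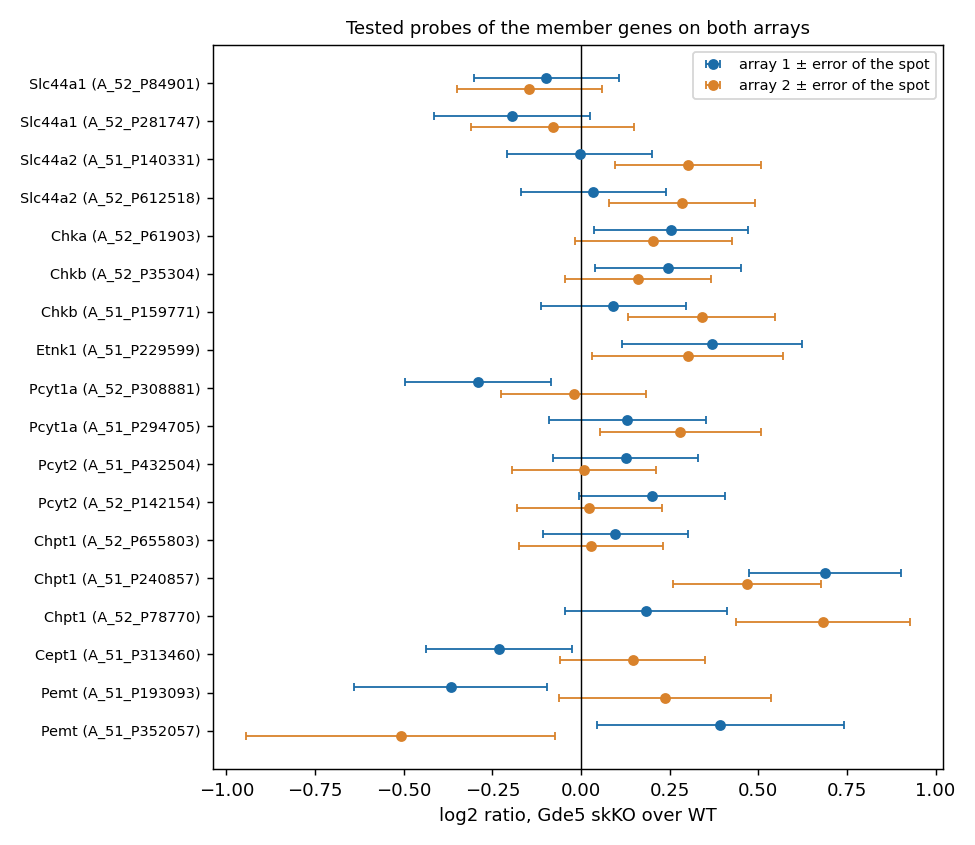
Log2 ratios of *Gde5* skKO over WT for the 18 tested member probes, in pathway order, on array 1 (blue) and array 2 (orange), with bars for the error of the spot that Feature Extraction gives. Probe A_51_P240857 of *Chpt1* lies at 0.69 and 0.47, while the other 2 probes of that gene and all probes of the other genes have at least 1 array whose ratio did not pass.

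The choline transporters come first in the pathway. SLC44A1 (CTL1) carries choline across the plasma and mitochondrial membranes. Its probe at chr4:53643333-53643392 read 1601 in WT and 1496 in the knockout on array 1, and 1880 and 1699 on array 2. The second, at chr4:53588367-53588426, read 198 and 173, then 166 and 157. Both probes were a little dimmer in the knockout on both arrays, with mean ratios of -0.12 and -0.14, and neither was called. With normexp and loess the means were -0.07 and -0.03, and the second probe was level on array 2 (0.00). SLC44A2 (CTL2) is the related transporter, and its 2 probes on chromosome 9 share 40 bases, so they are close to 1 measurement. At chr9:21105164-21105223 the WT and knockout signals were 3291 and 3282 on array 1, and 3397 and 4187 on array 2. Its neighbour, between 21105144 and 21105203, read 2798 and 2867, then 3404 and 4145. Array 1 thus showed next to no difference (0.00 and 0.03) and array 2 a higher knockout signal (0.30 and 0.28), and neither probe was called.

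The kinases commit choline and ethanolamine to the pathway. *Chkb*, whose product is the choline kinase that muscle relies on, has 2 probes on the minus strand of chromosome 15. At chr15:89254404-89254612 the signals were 2066 in WT and 2447 in the knockout on array 1, and 3059 and 3420 on array 2. At chr15:89255394-89255575 they were 772 and 823, then 752 and 953. Within each array the knockout was the brighter channel at both probes, although for the first the knockout on array 1 lay below WT on array 2. The ratios were 0.24 and 0.16 for the first probe and 0.09 and 0.34 for the second, with means of 0.20 and 0.22. The lowest Feature Extraction p of the 4 was 0.1003, so *Chkb* was not called, and its mean ratios were 0.19 and 0.17 after normexp and loess in limma.

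*Chka* encodes the other choline kinase and has 4 probes on chromosome 19, of which 1 was tested. At chr19:3871843-3871902 it read 193 in WT and 230 in the knockout on array 1, and 193 and 222 on array 2. The ratios were 0.25 and 0.20, with no call, and the mean of 0.23 became 0.05 with normexp and loess. On array 2 both channels of the 3 others (A_51_P142923, A_52_P329367 and A_52_P420045) lacked a signal well above background. On array 1 only the knockout channel of A_51_P142923 passed, at 28.2 against 15.8 in WT, so these probes set no direction. *Etnk1* encodes ethanolamine kinase, which starts the ethanolamine branch. Its tested probe at chr6:143163535-143163594 read 84.8 and 110 on array 1, and 91.7 and 113 on array 2. These signals are dim: the ratios of 0.37 and 0.30 carry errors of 0.25 and 0.27, and the mean of 0.34 became 0.09 with normexp and loess. The 2 other *Etnk1* probes (A_52_P446011 and A_52_P424640) were not well above background in either channel on either array.

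The cytidylyl transferases make CDP-choline and CDP-ethanolamine. *Pcyt1a*, the main CTP:phosphocholine cytidylyl transferase, has 2 probes on chromosome 16 that pointed apart. At chr16:32394326-32394385 the signals were 1525 in WT and 1246 in the knockout on array 1, and 1341 and 1322 on array 2. The other, mapped from 32386929 to 32389818, read 196 and 215, then 185 and 225. The first had a mean ratio of -0.16 and the second of 0.21, neither was called, and the genotypes did not differ on array 2 by more than the spot error at the first. With normexp and loess the means were -0.11 and 0.08. *Pcyt2* is the ethanolamine counterpart. Its probe at chr11:120426173-120426232 read 3659 and 3993 on array 1, and 4138 and 4162 on array 2. The neighbouring probe, from 120426476 to 120426535, read 1325 and 1523, then 1607 and 1632. The mean ratios of 0.07 and 0.11 were among the smallest of the list, and on array 2 the channels were nearly level.

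**Figure D2:**
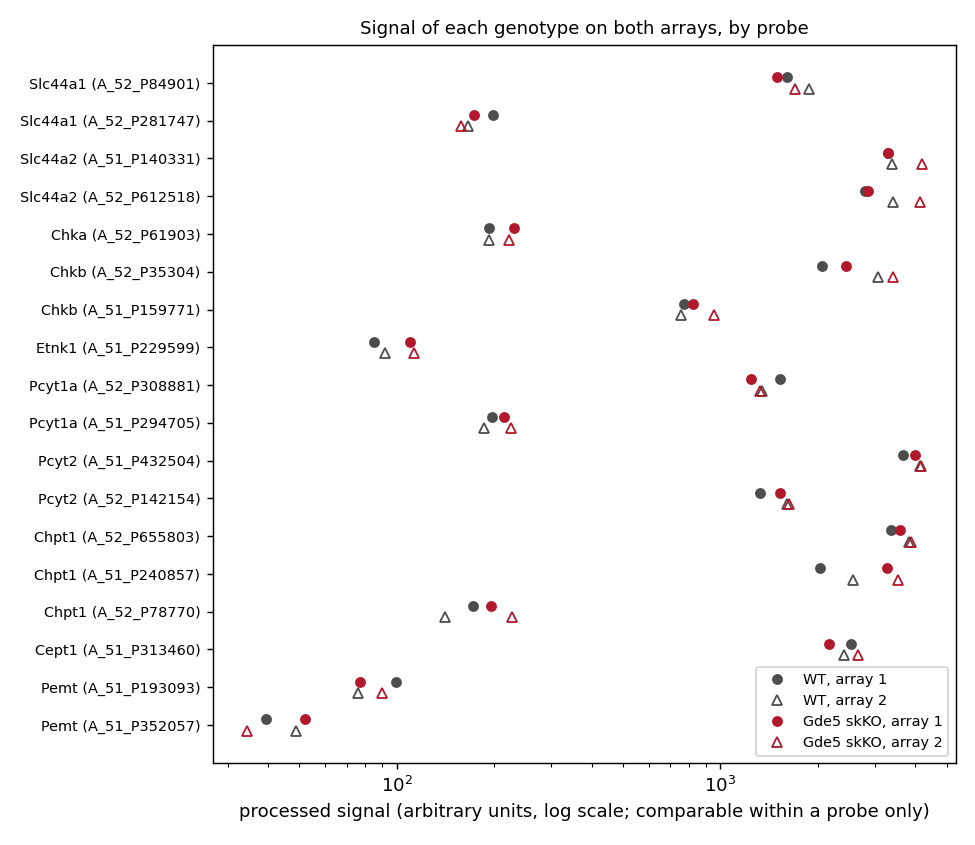
Processed signal (arbitrary units, log scale) of WT (grey) and *Gde5* skKO (red) on array 1 (filled circles) and array 2 (open triangles) for each tested member probe. The WT and knockout marks of *Chpt1* probe A_51_P240857 do not overlap (2028 and 2561 against 3266 and 3544), as is also so at 6 other probes that were not called, and those of *Pemt* change order between arrays.

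The last step joins the headgroup to DAG. *Chpt1* encodes cholinephosphotransferase, which makes PC alone, and has 3 probes on the minus strand of chromosome 10. At chr10:87905030-87905089 (probe A_51_P240857) the WT signal was 2028 and the knockout signal 3266 on array 1, and 2561 and 3544 on array 2. Both knockout signals lay above both WT signals. That alone is common on these arrays: it held for 6 of the 18 member probes (33.3%), also at *Chka*, *Chkb*, *Etnk1*, *Pcyt1a* and the most 3′ *Chpt1* probe, and for 21.2% of all tested probes. Both lay below WT at 1 member probe, the first *Pcyt1a* probe above (5.56%), and at 16.9% of all. The ratios were 0.69 ± 0.21 and 0.47 ± 0.21 (spot error), the Feature Extraction p-values 0.00129 and 0.0247, and the mean of 0.58 is a fold of 1.49. Of all tested probes, 456 (2.39%) had a mean ratio at least as high. After adjustment over all tested probes the Feature Extraction p was 0.0458 on array 1 and 0.256 on array 2, and limma's moderated test gave a mean of 0.51 with an adjusted p of 0.0898. The adjusted p over these tests ran from 0.0458 to 0.654, the highest being that of the methods' t-test. Unadjusted, that t-test gave 0.0836 and limma 0.000926, and a Feature Extraction p under 0.01 on both arrays was not met, so the call holds only under some rules.

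The probes of *Chpt1* did not give 1 answer. The probe at chr10:87903888-87903947, the most 3′ of the 3 and 1.14 kb from the called one, read 172 in WT and 195 in the knockout on array 1, and 141 and 226 on array 2. Its ratio was 0.18 on array 1 and 0.68 on array 2, and the Feature Extraction p-values were 0.423 and 0.00536. The mean of 0.43 became 0.15 with normexp and loess. The brightest probe, at chr10:87918185-87918244 and 14.3 kb from the most 3′ one, read 3358 and 3590, then 3817 and 3891. Its ratios were 0.10 and 0.03, within the spot error. With each gene represented by its brightest probe, *Chpt1* had a mean ratio of 0.06 and no member had a call. The probes share a strand and a transcript accession on the array. Whether each lies in an exon or an untranslated part was not assigned, since no mm8 annotation was used here.

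**Figure D3:**
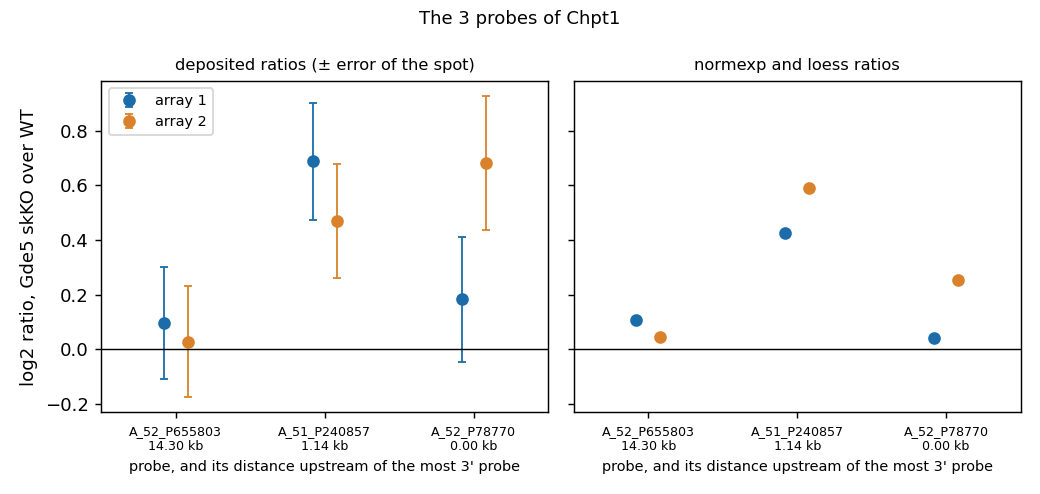
Log2 ratios of *Gde5* skKO over WT for the 3 *Chpt1* probes, ordered from the most 5′ to the most 3′ with their distance in kb, as deposited (left, with the error of the spot) and after normexp and loess (right), on array 1 (blue) and array 2 (orange). The middle probe is above 0.4 in all 4 values, the most 5′ probe near 0.1 or lower, and the most 3′ probe drops from a mean of 0.43 to 0.15 between the panels.

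*Cept1* encodes the phosphotransferase that makes both PC and PE and is the closest relative of *Chpt1*. Its probe at chr3:106631639-106631698 read 2535 in WT and 2159 in the knockout on array 1, and 2409 and 2666 on array 2. The ratios of -0.23 and 0.15 had opposite signs, and the mean of -0.04 was not called. *Chpt1* and *Cept1* act at the same step and 1 of them had a called probe, so the promoters that RefSeq gives them (GRCm38.p6) are printed here, 300 bases around the start of each gene, 5′ to 3′ along the gene. Capitals mark the GC box, a motif of many housekeeping promoters, searched as GGGCGG and, for the other strand, CCGCCC. *Chpt1* is at chr10:88503921-88504220 and *Cept1*, the first of its 3 entries, at chr3:106547753-106548052, both on the minus strand.
Chpt1: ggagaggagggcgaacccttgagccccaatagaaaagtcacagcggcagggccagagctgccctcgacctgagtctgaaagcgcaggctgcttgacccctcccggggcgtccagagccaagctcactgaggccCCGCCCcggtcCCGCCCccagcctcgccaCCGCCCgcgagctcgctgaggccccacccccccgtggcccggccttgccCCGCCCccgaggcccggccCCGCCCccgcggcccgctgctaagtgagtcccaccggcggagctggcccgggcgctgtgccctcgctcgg
Cept1: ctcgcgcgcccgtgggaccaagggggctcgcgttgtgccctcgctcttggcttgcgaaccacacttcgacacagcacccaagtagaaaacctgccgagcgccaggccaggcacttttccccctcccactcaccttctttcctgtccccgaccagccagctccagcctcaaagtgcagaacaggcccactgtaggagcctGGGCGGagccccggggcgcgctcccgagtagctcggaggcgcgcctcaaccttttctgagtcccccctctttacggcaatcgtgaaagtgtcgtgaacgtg
The *Chpt1* window holds 5 GC boxes, all in the CCGCCC orientation, and the *Cept1* window 1, as GGGCGG. Among all 32851 promoters of the same length 35.7% hold at least 1 GC box and 2.71% hold 5 or more. G and C make up 75.3% of the *Chpt1* window and 64% of the *Cept1* window. Neither holds an E-box (CANNTG, which reads the same on both strands), found in 72.3% of the promoters. These matches describe the sequence, and the arrays measured transcripts and not binding.

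*Pemt*, which supplies PC from PE and is chiefly a liver enzyme, gave dim signals. On the minus strand of chromosome 11, the probe from 59786971 to 59787030 read 99.5 in WT and 77.2 in the knockout on array 1, and 76.1 and 89.7 on array 2. The probe mapped from 59790342 to 59793060 read 39.5 and 51.9, then 48.9 and 34.4, and its knockout channel on array 2 was not well above background. Each probe changed sign between arrays, in opposite ways (-0.37 and 0.24 against 0.39 and -0.51), so no direction was measured for *Pemt*.

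Beyond the single call, the member probes were more often positive than negative. Both arrays gave a positive ratio for 11 of the 18 probes (61.1%) and a negative one for 3 (16.7%), against 29.3% and 24.5% of all tested probes. The median of the mean ratio was 0.13 (0.11 on array 1 and 0.18 on array 2) against 0.02 over all tested probes, and 0.08 against 0.00 with normexp and loess. These differences are small: 11 of the 18 had a mean ratio under 0.2 in size (61.1%), as did 64.5% of all tested probes, and the range was -0.16 to 0.58. They are a description of the list, not a test, and 7 genes entered with several probes. With each gene represented by its brightest probe, the member median was 0.065. *Chkb*, *Pcyt2*, *Chpt1*, *Chka* and *Etnk1* were positive on both arrays at each tested probe, *Slc44a1* was negative on both, and the other genes were mixed.

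**Figure D4:**
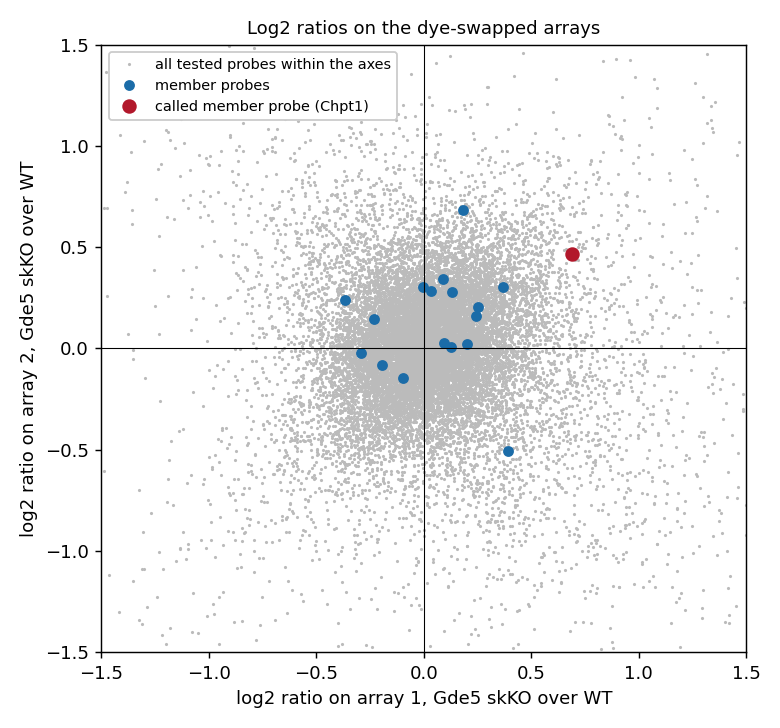
Log2 ratio of *Gde5* skKO over WT on array 1 (horizontal) against array 2 (vertical) for all tested probes between -1.5 and 1.5 (grey), the member probes (blue) and the called *Chpt1* probe (red). Of the 18 member probes 11 lie in the upper right and 3 in the lower left, and the called probe lies at 0.69 and 0.47.

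Genes around these steps were taken from 7 further lists, which hold 55 tested probes of 34 genes once *Gde5* is left out. A single probe was called higher (1.82%, against 1.49% of all tested probes) and none lower, a share near the background. It belongs to *Lpin1*, a phosphatidate phosphatase of muscle that makes the DAG used by the phosphotransferases, and read 8090 in WT and 10927 in the knockout on array 1, and 8475 and 13006 on array 2. The ratios were 0.43 and 0.62 and the Feature Extraction p-values 0.0369 and 0.00352, and the call was lost at a p under 0.01 and after adjustment. The 3 other *Lpin1* probes were positive on both arrays with means of 0.22 to 0.25 and no call. Their mapped places overlap or adjoin, so they are not independent measurements. In the DAG supply list as a whole, which runs from glycerol 3-phosphate acyltransferases to lipins, 14 of 20 tested probes were positive on both arrays and 3 negative, with a median of 0.24 (0.14 with normexp and loess, as in the brackets that follow). The other lists with 5 or more tested probes were closer to 0. The remaining CDP-choline and CDP-ethanolamine genes (*Pcyt1b*, *Etnk2* and *Selenoi*) had a median of -0.02 (-0.06) over 3 tested probes, and PS synthesis and decarboxylation 0.06 (0.03) over 5. The genes that supply methyl groups, which PEMT consumes, had a median of 0.00 (0.00) over 14, and the genes that break down PC and phosphocholine, without *Gde5*, had a median of -0.14 (-0.03) over 10. The 3 tested probes of the other choline transporters had a median of 0.23 (0.04), with 6 of the 8 genes not above background. That median is a single dim probe with opposite ratios on the arrays (2.14 and -1.68), and 1 of the 3 was positive on both. This last probe, of *Flvcr1*, had ratios of 0.80 and 0.45 and was not called. Its mean of 0.62 (0.13) was the highest of the 55 probes, while the other *Flvcr1* probe had a mean of -0.05 (-0.05). None of the 6 probes for choline oxidation was tested. Over all 55 probes 23 (41.8%) were positive on both arrays and 14 (25.5%) negative, with a median of 0.08 (0.02).

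**Figure D5:**
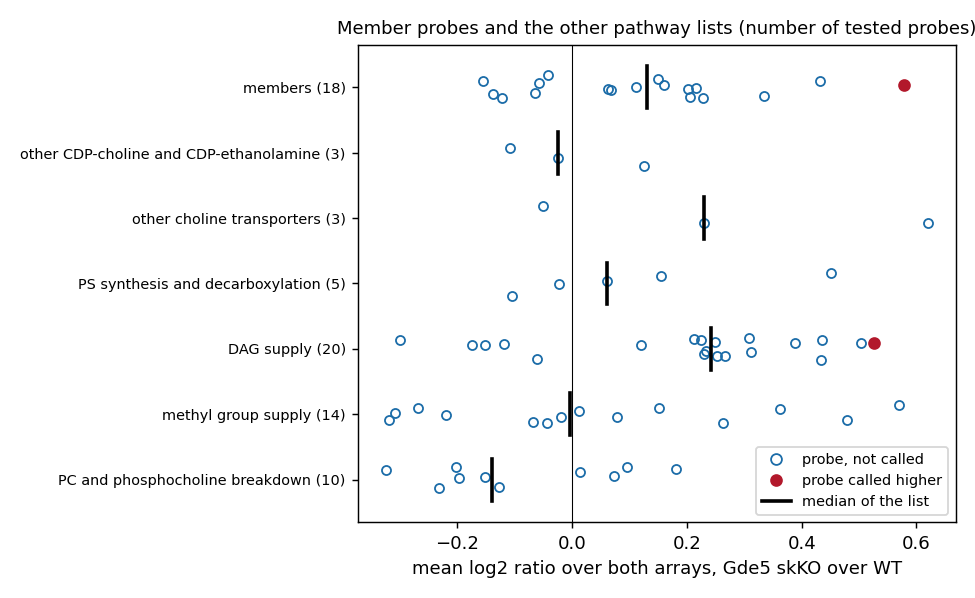
Mean log2 ratio of *Gde5* skKO over WT over both arrays for each tested probe of the member genes and of the other pathway lists with a tested probe, with the number of probes in brackets; open circles are not called, red circles were called higher, and the bar is the median of the list. With *Gde5* itself set aside, the *Chpt1* probe at 0.58 and the *Lpin1* probe at 0.53 carry the 2 calls.

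The muscle is a mixture, and in bulk RNA fewer cells of a type cannot be told apart from less RNA per cell. Markers of other cell types moved on the same arrays. Of 10 tested adipocyte probes, 6 were called lower (*Cfd*, *Adipoq*, *Plin1*, *Cidec* and both of *Retn*) and none higher, with a median ratio of -0.70 (-0.33 with normexp and loess). Their summed signal was 80105 in WT and 77674 in the knockout on array 1, and 78758 and 76985 on array 2. *Fabp4* was the brightest, with ratios of 0.13 and -0.02, so the sum does not show the lower median. *Lep* was not well above background. Slow fibre genes were higher where called. All 9 of their tested probes were positive on both arrays, and 3 (*Myl2* and both of *Tnni1*) were called, with a median of 0.48 (0.41 with normexp and loess). Their summed signal was 107344 in WT and 151672 in the knockout on array 1, and 105966 and 143918 on array 2, with *Myl3* the brightest. By qPCR, with primers for *Myh7*, *Myh2*, *Myh1* and *Myh4*, the paper reports comparable fibre-type mRNA in the genotypes. Over all tested probes, 1.49% were called higher and 1.58% lower. Of 5 tested liver probes, 2 of *Mup1* were called lower and 1 of *Apoh* higher, with a median of -0.66 (-0.17 with normexp and loess), the summed signal was 2701 in WT and 1617 in the knockout on array 1, and 2651 and 1658 on array 2, and *Apoa2* was not well above background. Markers of endothelium, fibroblasts, leukocytes, blood and Schwann cells had no called probe. The part of fat, liver transcripts and fibre type in the *Chpt1* and *Lpin1* values was not tested.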

How the data were processed

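GAS muscle RNA of WT and *Gde5* skKO mice was compared on 2 dye-swapped Agilent arrays, grouped and oriented by the dyes in the labels. The authors' software, Feature Extraction 9.5.3.1, subtracted background, normalized the dyes and wrote the deposited log10 ratio (Cy5 over Cy3) and the p-value of its error model for every spot. The deposited processed intensity of each channel was used for signals. The series table holds the same log10 values, rounded. Ratios were turned to log2 of *Gde5* skKO over WT. Control spots, outlier marks (164 on array 1 and 200 on array 2 of 43379 spots) and 10 spots beside debris on array 1 were left out, none of them a member's, and no member probe was saturated. Of the spots, 53.2% were well above background in the knockout and 45.6% in the WT channel on array 1, and 44.6% and 47.4% on array 2. The median ratio of tested probes was 0.02 on array 1 and 0.01 on array 2.

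Coordinates are those of the array annotation (mm8). Through a table of RefSeq genes, 24375 probes were named by accession, 6301 by symbol and 2426 by synonym. The other 8072 kept the name that the array gives. The text names every member gene with its probes, pathway genes with a called probe and called markers. Members, gene lists and tests were chosen with earlier results of these data known, so no p is given for a list. Alternatives were stricter and adjusted p thresholds, normexp (offset 50) with loess (limma 3.58.1, R 4.3.3), loess alone, the series table, other filters, genes in place of probes, the methods' t-test, and each array left out. The rest ran in Python 3.11.15 with pandas 2.3.3, scipy 1.17.1, numpy 2.4.6 and matplotlib 3.10.9, and the steps were tested on simulated data.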

Additional observations from a re-analysis of the deposited data

How the results depend on the processing

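No member probe was called lower under any alternative run. The member call (1 higher), all calls (284 higher, 302 lower) and pathway calls (1 higher, 0 lower) depended on the rule. A Feature Extraction p under 0.01 on both arrays left 0 members, 129 and 155 probes, and 0 pathway probes; adjusted per array it left 0, 62 and 89, and 0. limma's moderated test gave 1 member, 783 and 774 probes, and 3 and 1 pathway probes unadjusted, and 0, 42 and 77, and 0 after Benjamini-Hochberg. The methods' t-test called 2 members, *Chka* and *Etnk1* and not *Chpt1*, with 853 and 751 probes, and 3 and 1 pathway probes, and 0 of each kind after Benjamini-Hochberg. Without the filter on dim probes 1 pathway probe was called lower. By the brightest probe of each gene, members had 0 calls and a median of 0.065, beside 214 higher and 236 lower of 13606 genes. With each array left out, member calls were 1 to 2, all calls 1365 to 1506 higher and 1004 to 1316 lower, pathway calls 5 to 9 higher and 1 to 2 lower, since 1 array alone is an easier rule. Array 2 alone added the most 3′ *Chpt1* probe. The member median of 0.13 was 0.079 with normexp and loess, 0.11 on array 1 alone and 0.18 on array 2 alone, and stayed between 0.09 and 0.15 under the remaining settings. The sign of the mean changed at 1 of 18 member probes with normexp and loess, and at 2 with either array left out. The cause of these changes was not tested. Each array holds both genotypes, so every ratio, and limma's test of the ratios, already pairs them, and no further replicate block was fitted. The methods' t-test set the channel values side by side without that pairing. A slide block was not run, as both arrays share 1 slide. Depth cannot be given for arrays: 5 member probes lacked a channel well above background on at least 1 array and set no direction.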
